A study of Caenorhabditis elegans with 6 samples.

Results

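Starved L1 larvae, the stage at which Caenorhabditis elegans hatches, that carried the elo-5(gk208) mutation and descended from mothers fed the fatty acid C17ISO were set against wild-type N2 larvae whose mothers were fed C13ISO. Each group had 2 arrays, and these 4 of the series' 6 arrays were chosen by their group labels, with no measured value used. The elo-5 C17ISO mothers had eaten OP50 bacteria carrying 1 mM C17ISO, and the N2 C13ISO mothers had eaten the same bacteria carrying 1 mM C13ISO, both at 20 °C. Every line, the wild type included, had first spent a generation on 1 mM C17ISO in DMSO. Eggs freed by bleaching were left without food for 24 h, and RNA was taken from whole larvae. The other 2 arrays were of elo-5(gk208) larvae from mothers on 1 mM C13ISO, which the labels call C17ISO deficient, and they enter here as a further set of values and as part of the estimate of the spread. The comparison asked what stayed different from wild type in the mutant once C17ISO was supplied. N2 larvae from mothers on C17ISO were not analysed here, so the effects of genotype and of supplement cannot be told apart. The mutant is represented by 1 allele, and whole larvae mix all cell types.

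C13ISO and C17ISO are saturated fatty acids that carry a methyl branch next to the end of the chain, and C17ISO is the longer of the pair. Worms build such chains from a primer made by the breakdown of the amino acid leucine, and the elongase ELO-5 is needed to extend them to C17ISO. A larva that hatches without food depends on what its mother put into the egg and arrests as an L1, and C17ISO is known as a lipid that worms need for growth beyond that stage.

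The 4 arrays were close to each other. Array medians were 111 and 107 in elo-5 C17ISO and 120 and 111 in N2 C13ISO, in the units of the deposited dChip intensities. The Spearman correlation over all probe sets was 0.985 between the elo-5 C17ISO arrays, 0.989 between the N2 C13ISO arrays, and 0.981 to 0.982 between arrays of different groups. The elo-5 C13ISO arrays correlated with these 4 at 0.926 to 0.943. Arrays of 1 group are biological replicates by the labels, with no more said of their origin, so the p-values below measure the spread between these samples.

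Of 15783 probe sets bright enough to be tested, 222 passed an adjusted p of 0.05 between elo-5 C17ISO and N2 C13ISO larvae in limma, or 1.41%. A fit of only these 4 arrays called 534, and 15.7% of probe sets had an unadjusted p under 0.05 in the fit of all 6. These called probe sets comprised 121 that were higher in elo-5 C17ISO (0.767%) and 101 that were lower (0.64%), and they named 103 genes higher and 86 genes lower, with no gene in both directions. A further 23 of the 222 had no single gene name, 13 higher and 10 lower. In the same fit the elo-5 C13ISO arrays differed at 44.5% of probe sets from elo-5 C17ISO and at 43.6% from N2 C13ISO, comparisons that share their arrays with this one. The differences were small: the median absolute log2 difference was 0.98 among called probe sets and 0.17 over all tested ones, and 99 called probe sets changed at least 2-fold (0.627%), of which 55 were higher and 44 lower. At least 4-fold were 3 higher and 7 lower. At every called probe set both elo-5 C17ISO arrays lay on the same side of both N2 C13ISO arrays, as they did at 50.9% of all those tested. The median log2 difference over all tested probe sets was -0.04 as deposited and 0.03 with array medians aligned. The share of called probe sets that were higher was 54.5% as deposited, 69.6% with array medians aligned and 47.6% in the fit of only the 4 arrays. The calls rested on all 4 arrays: without 1 array, 26 (elo-5 C17ISO replicate 1 left out), 38 (elo-5 C17ISO replicate 2), 48 (N2 C13ISO replicate 1) and 29 (N2 C13ISO replicate 2) probe sets were called, and 18 of the 222 passed in each of these 4 fits, whereas 168 passed in none of them. Differences and folds below are on the scale of log2(value + 16), which understates changes of dim genes. Since whole larvae were used, fewer cells of a type and less RNA per cell cannot be told apart.

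The mutated gene itself stayed low. The elo-5 probe set read 146 and 178 in elo-5 C17ISO larvae and 1170 and 1608 in N2 C13ISO larvae, with 217 and 144 in elo-5 C13ISO larvae. All 4 mutant arrays lay far below both wild-type arrays, and the mutant groups overlapped. The difference from wild type was a log2 of -2.97 (SE 0.22, 7.82-fold lower, limma adjusted p = 2.08e-04), and its adjusted p was 0.0013 to 0.0089 in the fits without 1 array. The position of its probes against the deleted stretch of gk208 is given by neither the labels nor the table, so it may not test the labels. Of the 10 genes nearest to elo-5 in the gene order, 5 on each side, none of the 7 that could be tested was called. F41H10.3, the gene next to elo-5, had a log2 difference of 0.21 (95% interval -0.29 to 0.70, adjusted p = 0.72). The remaining 3 neighbours, F41H10.2, F41H10.12 and ZK616.5, were too dim to be tested, the brightest value among them on these 4 arrays being 44.1.

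The rest of the pathway that makes branched chains was not called. Of 11 genes of branched-chain fatty acid synthesis, elo-5 was the only one called, and the median log2 difference of the list was -0.14, against -0.04 over 12057 genes, of which 1.51% were called, 0.821% higher and 0.688% lower. The elongase gene elo-6, which also extends these chains, read 2308 and 1708 in elo-5 C17ISO, 1011 and 1009 in elo-5 C13ISO, and 2262 and 2107 in N2 C13ISO. Supplemented and wild-type values overlapped, with a log2 difference of -0.14 (95% interval -0.46 to 0.19). The ketoacyl reductase gene let-767 had a log2 difference of -0.14 (interval -0.41 to 0.13), and acs-1, an acyl-CoA synthetase that acts on branched chains, one of 0.17 (-0.18 to 0.52) at its brighter probe set. The acetyl-CoA carboxylase gene pod-2 differed by -0.05 (-0.33 to 0.23) and the fatty acid synthase gene fasn-1 by 0.21 (-0.05 to 0.46). The genes that turn branched amino acids into primers were also uncalled: bcat-1, the aminotransferase, differed by 0.35 (0.05 to 0.64, adjusted p = 0.233), and the subunits of the ketoacid dehydrogenase bckd-1B, dbt-1 and dld-1 by -0.23 (-0.54 to 0.08), -0.18 (-0.50 to 0.14) and -0.07 (-0.33 to 0.18). At bckd-1A the dehydrogenase subunit was measured by a brighter probe set at -0.62 (-1.24 to 0.00) and a dimmer one at -0.05 (-0.36 to 0.26). Apart from elo-5, the brighter bckd-1A probe set was the only one named here whose interval reached a 2-fold change.

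The largest decreases were shared by both mutant groups in several genes. The gene srv-7, a member of a family of serpentine chemoreceptors, read 46.8 and 43.3 in elo-5 C17ISO, 89 and 82.4 in elo-5 C13ISO, and 4439 and 4273 in N2 C13ISO. Its second probe set read 48.4 and 47.9 in elo-5 C17ISO, 52.8 and 46.2 in elo-5 C13ISO, and 2469 and 2488 in N2 C13ISO. Both probe sets were bright in the wild type alone, with log2 differences of -6.16 (SE 0.15, adjusted p = 3.38e-08) and -5.28 (SE 0.16, adjusted p = 8.13e-08). The cadherin gene cdh-10, of a family of cell adhesion proteins, read 22.4 and 13.9 in elo-5 C17ISO, 8.16 and 11.5 in elo-5 C13ISO, and 271 and 223 in N2 C13ISO (log2 -2.95, SE 0.21, adjusted p = 1.94e-04). The C-type lectin gene clec-52 read 96.5 and 95.9 in elo-5 C17ISO, 51 and 31.7 in elo-5 C13ISO, and 860 and 677 in N2 C13ISO (log2 -2.79, SE 0.21, adjusted p = 2.08e-04). For cdh-10 and clec-52, too, every mutant array lay below both wild-type arrays, and the unsupplemented mutant was the lowest. The gene gcsh-1, related to the H protein of the glycine cleavage system, fell by 2.12 (SE 0.21, adjusted p = 0.00131). These genes passed in each of the 4 fits without 1 array, where their adjusted p reached at most 0.028.

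Smaller decreases differed in where the unsupplemented mutant lay. The lysosomal lipase gene lipl-1 read 41.4 and 47.2 in elo-5 C17ISO, 47.8 and 33.7 in elo-5 C13ISO, and 133 and 176 in N2 C13ISO (log2 -1.49, SE 0.21, adjusted p = 0.00961). The metallothionein gene mtl-1, which encodes a metal-binding stress protein, read 717 and 623 in elo-5 C17ISO, 653 and 623 in elo-5 C13ISO, and 1713 and 1910 in N2 C13ISO (log2 -1.41, SE 0.14, adjusted p = 0.00131). In these genes the mutant groups lay side by side below the wild type. The early zygotic gene sdz-24 fell less in the supplemented mutant, with 1236 and 1179 in elo-5 C17ISO, 256 and 237 in elo-5 C13ISO, and 3041 and 2990 in N2 C13ISO (log2 -1.31, SE 0.13, adjusted p = 0.00131). The infection response gene irg-5 had the same order, with 571 and 465 in elo-5 C17ISO, 106 and 56.6 in elo-5 C13ISO, and 1323 and 1439 in N2 C13ISO (log2 -1.39, SE 0.23, adjusted p = 0.0208). The Skp1-related gene skr-9, whose family serves ubiquitin ligases, ran against this order: it read 87 and 70.1 in elo-5 C17ISO, 562 and 1079 in elo-5 C13ISO, and 257 and 215 in N2 C13ISO (log2 -1.41, SE 0.27, adjusted p = 0.0349). The supplemented mutant was thus the lowest of the 3 groups at skr-9 and the middle one at sdz-24 and irg-5. The skr-9 probe set carries a suffix that marks probes able to match several transcripts, so related genes may share its signal. The remaining named members of the 20 largest decreases were pugs-9 (log2 -2.06), C06E8.5, C54D10.10, elpc-1 (an Elongator subunit), xtr-1, ntl-2.2 (a relative of a CCR4-NOT subunit), ifc-1 (an intermediate filament), D1086.3, C09B8.4 and lgc-51 (a ligand-gated ion channel). Apart from pugs-9 these lay between -1.61 and -1.28. Of the genes in this paragraph mtl-1 and sdz-24 passed in all 4 fits without 1 array. The adjusted p of irg-5 was 0.11 to 0.20 there, that of skr-9 0.17 to 0.23 and that of lipl-1 0.041 to 0.15, the last passing in 1 of the 4 fits.

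**Figure D1:**
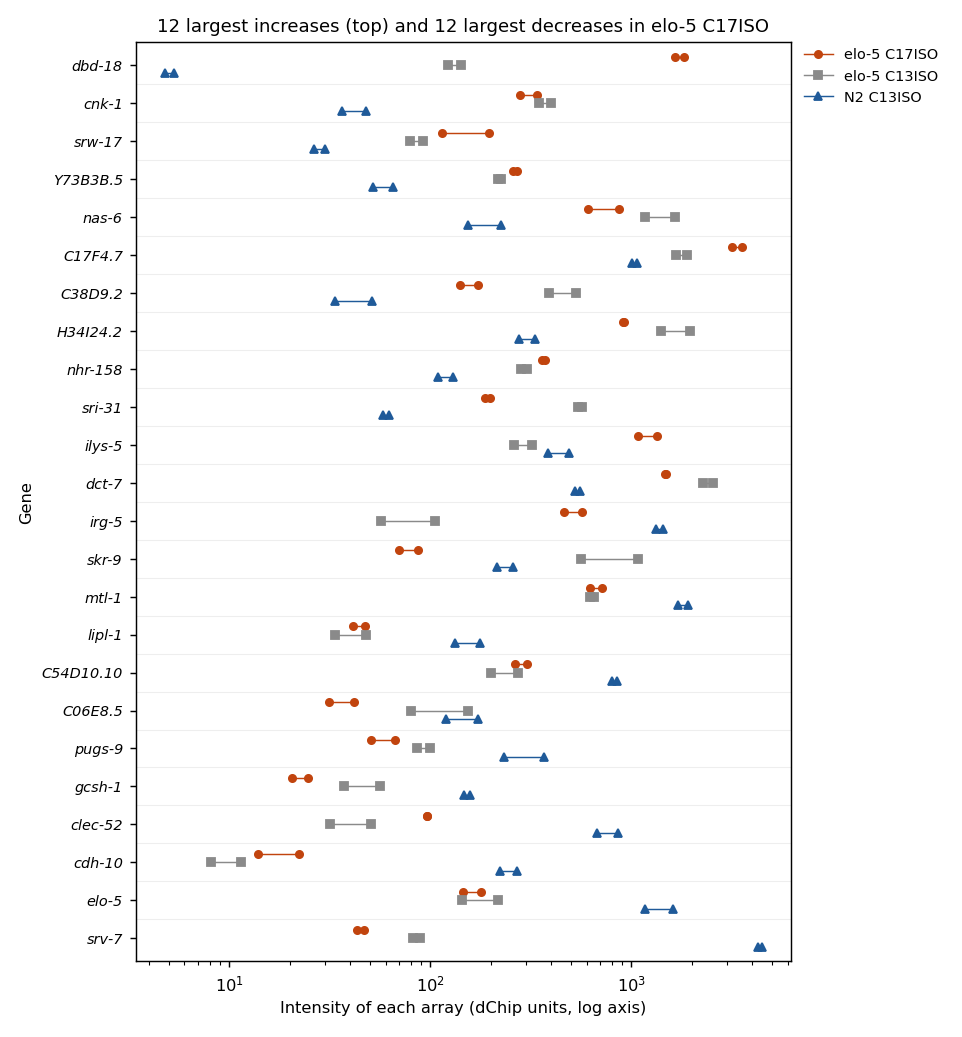
Intensity of every array (log axis) for the 12 genes with the largest called increases and the 12 with the largest called decreases in elo-5 C17ISO against N2 C13ISO, with elo-5 C13ISO as a further set. At srv-7, elo-5, cdh-10, clec-52, mtl-1 and lipl-1 both mutant groups lie below the wild type, whereas at dbd-18 and C17F4.7 the supplemented mutant lies above both other groups.

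Increases were led by a gene almost dark in the wild type. The gene dbd-18 read 1646 and 1822 in elo-5 C17ISO, 122.2 and 141.6 in elo-5 C13ISO, and 4.82 and 5.35 in N2 C13ISO. The groups were far apart, and the supplemented mutant was the highest of the 3. Its log2 difference was 6.37 (SE 0.17, adjusted p = 3.38e-08), or 82.9-fold on the offset scale, and the size depends on the offset because the wild-type values lie below it, a larger offset giving a smaller difference. The gene cnk-1, which encodes a scaffold protein of Ras signalling, read 338 and 278 in elo-5 C17ISO, 399 and 348 in elo-5 C13ISO, and 36.5 and 47.8 in N2 C13ISO (log2 2.48, SE 0.18, adjusted p = 2.08e-04). Both mutant groups were high and lay close together at cnk-1. The gene C17F4.7 read 3567 and 3170 in elo-5 C17ISO, 1901 and 1669 in elo-5 C13ISO, and 1009 and 1070 in N2 C13ISO (log2 1.68, SE 0.12, adjusted p = 1.94e-04). The probe set of Y73B3B.5 has a suffix of probes that may match several sequences. Y73B3B.5 read 269 and 259 in elo-5 C17ISO, 218 and 225 in elo-5 C13ISO, and 52.1 and 65.5 in N2 C13ISO. Its log2 difference was 1.91 (SE 0.17, limma adjusted p = 8.28e-04). These genes passed in each of the 4 fits without 1 array, as did dct-7, listed among genes that the transcription factor DAF-16 represses (log2 1.43, SE 0.12, adjusted p = 5.99e-04). So did srdh-1, named here for that reason alone (log2 1.04, SE 0.10, adjusted p = 0.00131). For dct-7 the elo-5 C13ISO arrays were higher still, at 2547 and 2266, above 1490 and 1476 in elo-5 C17ISO and 525 and 555 in N2 C13ISO.

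The other members of the 20 largest increases had varied products. The astacin metalloprotease gene nas-6 rose by a log2 of 1.88 (SE 0.24), the nuclear hormone receptor gene nhr-158 2.84-fold and the serpentine receptor genes srw-17, sri-31, srr-2 and sri-40 by 1.91, 1.45, 1.35 and 1.34. H34I24.2 rose by 1.54 (SE 0.18) and its second probe set, which was not called, read 1.65. The invertebrate-type lysozyme gene ilys-5 was called at each of 3 probe sets, with log2 differences of 1.25, 1.34 and 1.44. Its brightest probe set read 1341 and 1075 in elo-5 C17ISO, 319 and 262 in elo-5 C13ISO, and 384 and 489 in N2 C13ISO, so the supplemented mutant alone was high. All 3 ilys-5 probe sets carry the suffix that marks probes able to match several transcripts, so related lysozyme genes may share this signal. The cytochrome P450 genes cyp-34A1 and cyp-13A8 rose by 1.39 and 1.36, with the highest values of cyp-34A1 in elo-5 C17ISO (189 and 195, against 56 and 46 in elo-5 C13ISO and 65.7 and 61.5 in N2 C13ISO). At cyp-13A8 the elo-5 C13ISO arrays were the highest, at 978 and 1431, above 295 and 234 in elo-5 C17ISO and 117 and 72.4 in N2 C13ISO. Of 60 tested cytochrome P450 genes these 2 rose and 2 fell (6.67% called, against 1.51% of all genes), with a median of 0.11. The fallers were cyp-25A1, by 0.99 (SE 0.20, adjusted p = 0.045), and cyp-14A5, by 0.77 (SE 0.15, adjusted p = 0.039), and neither passed in any fit without 1 array. At cyp-14A5 the supplemented mutant was the lowest group, with 262 and 289 in elo-5 C17ISO, 541 and 619 in elo-5 C13ISO, and 477 and 485 in N2 C13ISO. The germ granule helicase gene glh-4 rose by 1.30, best-1, of the bestrophin channel family, by 1.31, and ech-1.1, C38D9.2 and T02B11.6 by 1.35, 1.57 and 1.29. Without 1 array the adjusted p of nas-6 was 0.021 to 0.067, of nhr-158 0.021 to 0.059, of sri-31 0.031 to 0.059 and of the brightest ilys-5 probe set 0.035 to 0.089.

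Beta-oxidation shortens fatty acids for energy, and of 38 tested genes of this pathway 3 rose and none fell, with a median log2 difference of 0.14. Called were thus 7.89%, against 1.51% of all genes. The members ran between -0.56 and 1.35, 26 of them above zero. The arrays did not overlap at 18 that were higher and 9 that were lower, where 50.9% of all probe sets did not overlap. The carnitine palmitoyltransferase gene cpt-4, of the family that carries long chains into mitochondria, read 1902 and 1829 in elo-5 C17ISO, 1158 and 936 in elo-5 C13ISO, and 1108 and 948 in N2 C13ISO. In limma its 2 probe sets rose by 0.85 (SE 0.14, adjusted p = 0.0217) and 0.98 (SE 0.14, adjusted p = 0.00978). Both have a suffix of probes that may match several transcripts, so they are not certain to be separate measurements. The supplemented mutant was above both other groups. The gene ech-1.1, which encodes a subunit of the mitochondrial trifunctional protein, read 543 and 526 in elo-5 C17ISO, 70.1 and 101 in elo-5 C13ISO, and 210 and 190 in N2 C13ISO (log2 1.35, SE 0.19, adjusted p = 0.00879). Its second probe set was 0.63 higher and not called (interval 0.21 to 1.05). Both ech-1.1 probe sets carry a suffix of probes that may match several transcripts, too. The dim gene cpt-3 rose by 0.96 (SE 0.20, adjusted p = 0.0499). None of these 3 genes was called in any of the 4 fits without 1 array.

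The fasting-induced acyl-CoA synthetase gene acs-2 gave a divided result: 1 probe set read 1991 and 1711 in elo-5 C17ISO, 393 and 335 in elo-5 C13ISO, and 785 and 886 in N2 C13ISO (log2 1.13, SE 0.15, adjusted p = 0.00763), whereas its brighter probe set read 2901 and 1629 in elo-5 C17ISO, 860 and 451 in elo-5 C13ISO, and 1608 and 2034 in N2 C13ISO (log2 0.26, interval -0.42 to 0.95). The called probe set separated the groups and passed in 1 of the 4 fits without 1 array, and at the brighter one supplemented and wild-type arrays overlapped. Among 17 elongase and desaturase genes elo-5 alone was called (5.88%, against 1.51% of all genes). The desaturase gene fat-5, chosen after its values were seen, read 410 and 439 in elo-5 C17ISO, 30.7 and 39.2 in elo-5 C13ISO, and 391 and 399 in N2 C13ISO, a log2 difference from wild type of 0.10 (interval -0.27 to 0.47). The unsupplemented mutant stood apart and the supplemented one lay next to the wild type. The desaturase genes fat-6 and fat-7, also chosen after their values were seen, differed by -0.41 (-0.77 to -0.05, adjusted p = 0.246) and -0.33 (-0.78 to 0.13). Among 15 regulators of lipid metabolism the nuclear hormone receptor gene nhr-68 fell by 1.04 (SE 0.18, adjusted p = 0.0241) and the median was -0.13. Of 20 lipase and fat store genes 1 fell, the lipl-1 described above, and the median was -0.02, or 0.05 with array medians aligned. No gene was called by limma among 19 acyl-CoA synthetases at their brightest probe sets, 20 genes of sphingolipid metabolism or 18 of propionate and branched-chain amino acid breakdown, where 2, 6 and 5 had an unadjusted p under 0.05. The fatty acid and retinol binding protein gene far-4, on none of the lists and picked after its values were seen, was higher in elo-5 C17ISO alone, at 148 and 153, against 72.9 and 59 in elo-5 C13ISO and 65.5 and 54.7 in N2 C13ISO (log2 1.13, SE 0.18, adjusted p = 0.0194). The adjusted p of far-4 was 0.089 to 0.22 without 1 array, and that of nhr-68 0.066 to 0.26.

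**Figure D2:**
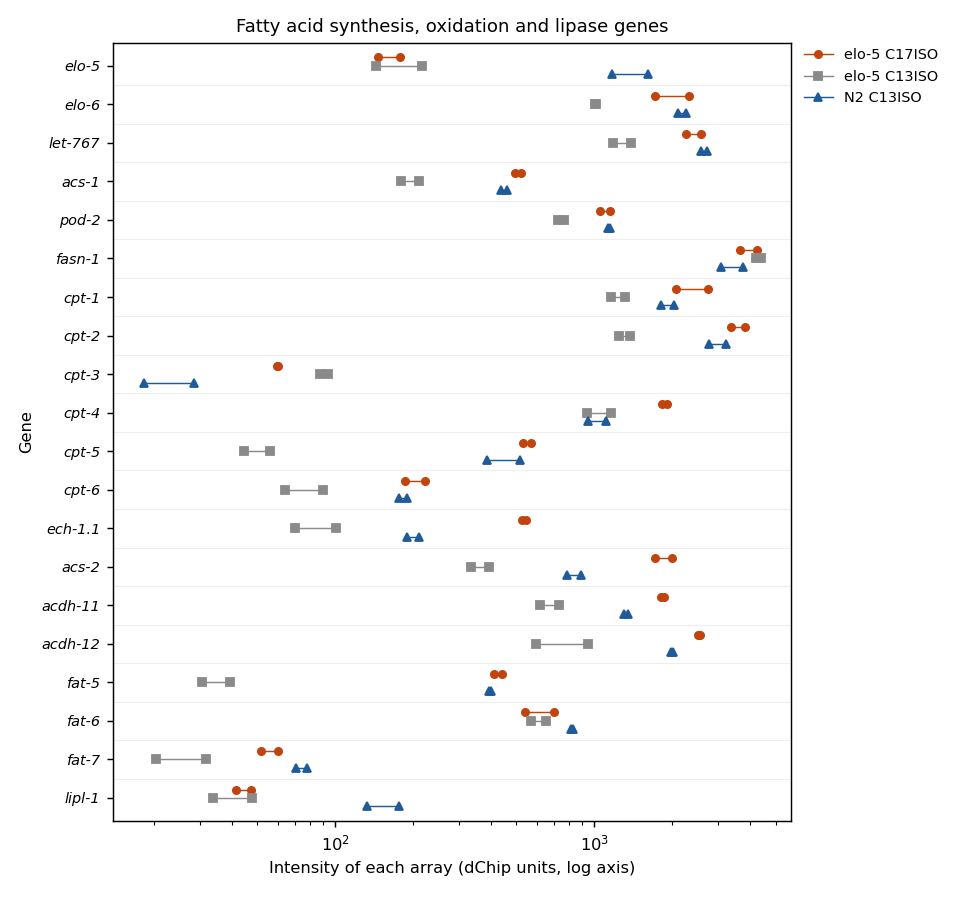
Intensity of every array (log axis) for 20 genes of branched-chain synthesis, fatty acid oxidation, desaturation and lipolysis. The supplemented mutant overlaps or neighbours the wild type at most of them, is far below it at elo-5 and lipl-1, and is above it at cpt-3, cpt-4, ech-1.1 and the called acs-2 probe set, while the unsupplemented mutant is the lowest group at fat-5 and cpt-5.

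A run of epidermal antimicrobial peptide genes rose together. The nlp genes of this list encode small glycine-rich peptides that the epidermis makes after infection or wounding. Of 29 tested genes of the list 5 rose and none fell (17.2% called, against 1.51% of all genes). Above zero lay 23, and the median log2 difference was 0.32. The 5 were nlp-27, nlp-28, nlp-29, nlp-30 and nlp-31, which are next to each other in the gene order. The gene nlp-29 read 2371 and 2204 in elo-5 C17ISO, 3110 and 4031 in elo-5 C13ISO, and 1426 and 1143 in N2 C13ISO (log2 0.83, SE 0.15, adjusted p = 0.0292). The gene nlp-28 read 1622 and 1430 in elo-5 C17ISO, 2338 and 2367 in elo-5 C13ISO, and 898 and 806 in N2 C13ISO (log2 0.83, SE 0.12, adjusted p = 0.012). At both genes the supplemented mutant lay between the unsupplemented mutant and the wild type, with no overlap. The others differed by 0.77 (nlp-27), 0.65 (nlp-30) and 0.92 (nlp-31), with adjusted p from 0.0122 to 0.0499. All 5 probe sets have the suffix of probes that may match several similar sequences, so the genes are not certain to be separate measurements. Without N2 C13ISO replicate 1 the list had 1 called gene, and without any other single array it had none. Other members of the list, picked after their values were seen, were uncalled: nlp-33 differed by 0.07 (-0.14 to 0.28), nlp-25 by 0.10 (-0.29 to 0.48) and cnc-2 by 0.73 (0.38 to 1.09, adjusted p = 0.0593).

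**Figure D3:**
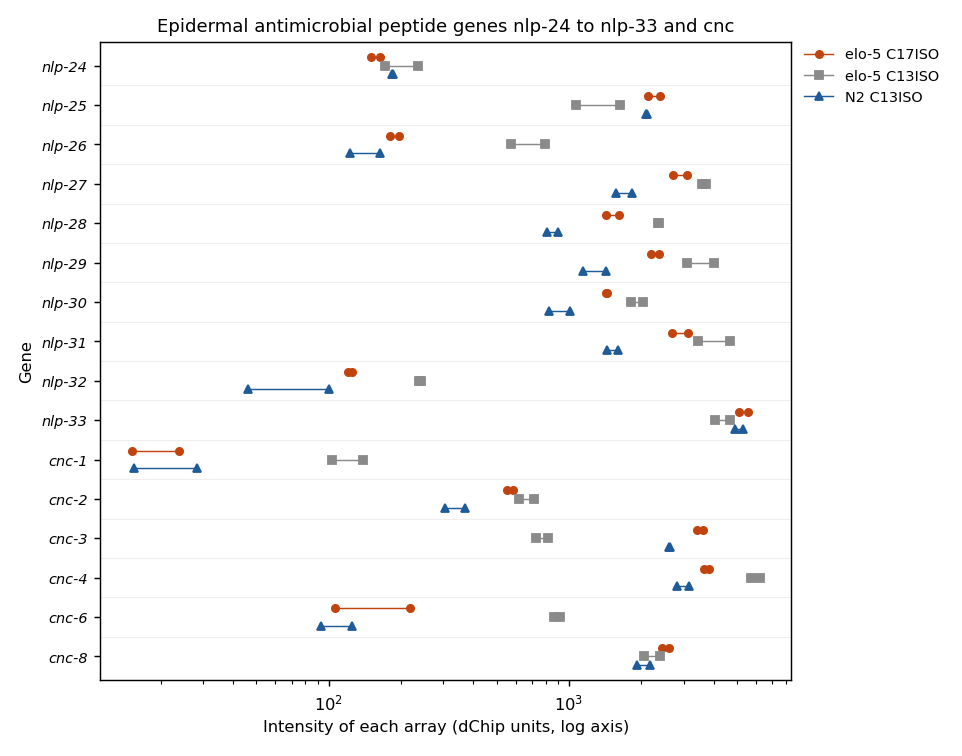
Intensity of every array (log axis) for 16 epidermal antimicrobial peptide genes. At nlp-27 to nlp-31 the supplemented mutant lies between the unsupplemented mutant and the wild type, whereas at nlp-33 it lies within reach of the wild type.

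Other defence genes moved in both directions. Called were 3.45% of C-type lectins, 20% of lysozymes, 6.67% of saposin-like genes and 17.6% of pals and irg genes. The share over all genes was 1.51%. Of 87 tested C-type lectin genes, a family that includes secreted intestinal proteins, clec-52, clec-5 and clec-60 fell, the last 2 by 0.96 and 0.93, and the list median was 0.10. Of 10 lysozyme genes ilys-5 rose and lys-2 fell, lys-2 with 575 and 587 in elo-5 C17ISO, 1191 and 765 in elo-5 C13ISO, and 1110 and 1286 in N2 C13ISO (log2 -1.02, SE 0.19, adjusted p = 0.0352). The saposin-like gene spp-8, of a family of antimicrobial peptides, rose by 1.27 (SE 0.15, adjusted p = 0.00512), with 2825 and 2218 in elo-5 C17ISO, 1742 and 1527 in elo-5 C13ISO, and 932 and 1135 in N2 C13ISO. Of 17 pals and irg genes irg-5 and irg-4 fell, irg-4 by 0.74, and irg-7 rose by 0.53. The members of these lists that moved thus included 3 that rose and 6 that fell. Of these, clec-52 passed in all 4 fits without 1 array, spp-8 in 3 and ilys-5 in 2, while clec-5, clec-60, lys-2, irg-4, irg-5 and irg-7 passed in none.

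Of 101 tested cuticle collagen genes 4 fell and none rose (3.96% called, against 1.51% of all genes). In limma 31 had an unadjusted p under 0.05, as did 15.7% of all probe sets. The arrays did not overlap at 25 that were higher and 33 that were lower, where 50.9% of all probe sets did not overlap. The list median of -0.05 turned to 0.02 with array medians aligned or quantile normalization. The gene col-91 read 1115 and 1728 in elo-5 C17ISO, 571 and 499 in elo-5 C13ISO, and 2948 and 2996 in N2 C13ISO (log2 -1.09, SE 0.19, adjusted p = 0.0241). The gene col-39 read 1006 and 1014 in elo-5 C17ISO, 1544 and 1397 in elo-5 C13ISO, and 1949 and 1996 in N2 C13ISO (log2 -0.95, SE 0.12, adjusted p = 0.00512). The supplemented mutant was the lowest group at col-39 and the middle one at col-91. The very bright probe sets of col-159 and col-147 fell by 0.42 and 0.35, and a slightly dimmer one of col-147 by 0.37. All of these have the suffix of probes that may match several sequences. Without 1 array the list had 0 to 2 called genes, the 2 in the fit without elo-5 C17ISO replicate 2. The 5 furrow collagens, dpy-2, dpy-3, dpy-7, dpy-8 and dpy-9, which shape rings of the cuticle, had none called by limma (3 with an unadjusted p under 0.05), and all 5 lay above zero with a median of 0.37. Their pattern was noticed after the values were seen: dpy-9, for example, read 2610 and 2596 in elo-5 C17ISO, 139 and 126 in elo-5 C13ISO, and 1925 and 2107 in N2 C13ISO (log2 0.37, interval 0.08 to 0.66, adjusted p = 0.202). At dpy-9 both supplemented arrays lay above both wild-type arrays, uncalled, and the unsupplemented mutant lay far below. Among hedgehog-related and Patched-related genes, 59 tested, ptr-22 and ptr-8 rose by 1.24 and 0.67 and grl-4 fell by 0.88 (5.08% called). Of 35 secreted metalloprotease genes nas-6 rose, as above, and nas-5 fell by 1.25 (5.71% called).

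Pharynx markers lay above zero without a call. Of 15 tested markers, 12 had a log2 difference above zero and none was called, with a median of 0.52, the highest of the lists with at least 5 tested members. In limma 8 of the 15 had an unadjusted p under 0.05, as did 15.7% of all probe sets. The arrays did not overlap at 9 of the 15, all higher in elo-5 C17ISO, where 50.9% of all probe sets did not overlap. The summed intensity of the list was 16038 and 14473 in elo-5 C17ISO, 28341 and 35927 in elo-5 C13ISO, and 10971 and 10487 in N2 C13ISO. The supplemented mutant lay between the others, nearer to the wild type. The pharyngeal myosin gene myo-2, chosen after its values were seen, read 1903 and 1772 in elo-5 C17ISO, 3296 and 4868 in elo-5 C13ISO, and 1233 and 1027 in N2 C13ISO (log2 0.70, interval 0.31 to 1.08, adjusted p = 0.0906). Picked in the same way, the pharyngeal myosin gene myo-1 differed by 0.56 (0.30 to 0.82, adjusted p = 0.0524) and the troponin gene tni-4 by 0.57 (0.30 to 0.84, adjusted p = 0.0558). Outside the list, called genes with a known pharyngeal product included phat-8, of a pharyngeal gland family (log2 0.74), the transporter gene pgp-14 (0.88) and idpp-12 (0.89), each higher again in elo-5 C13ISO. These 3 were picked among the called increases after their values were seen, so they do not bear on the level of the list. The brighter probe set of pgp-14 differed by 0.46 and was not called (limma adjusted p = 0.102). That of idpp-12 has the suffix of probes that may match several sequences. With array medians aligned 3 pharynx markers were called, and with quantile normalization 2. Whether the level of these markers bears on other increases was not tested.

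Neuropeptide genes were shifted slightly upward. Of 65 tested FMRFamide-like and other neuropeptide genes 54 lay above zero, with a median of 0.22. Limma called 2 (3.08%, against 1.51% of all genes), nlp-51 by 1.15 (SE 0.18, adjusted p = 0.0173) and nlp-81 by 0.68 (SE 0.13, adjusted p = 0.0378). The gene nlp-51 read 456 and 507 in elo-5 C17ISO, 660 and 514 in elo-5 C13ISO, and 183.7 and 236.3 in N2 C13ISO. Both mutant groups were above the wild type at nlp-51, whose probe set has the suffix of probes that may match several sequences. With array medians aligned 5 members of the list were called, and without any 1 array none was. Insulin-like peptide genes, 21 tested, had no limma call and a median of 0.26, while synaptic and pan-neuronal markers, 22 tested, had none and a median of 0.03. Their members with an unadjusted p under 0.05 numbered 5 and 3. The summed intensity of the neuronal markers was 33983 and 32455 in elo-5 C17ISO and 32779 and 29821 in N2 C13ISO, which overlapped.

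Chemosensory receptors were mostly too dim to be tested, with 228 of 1277 genes passing the filter. Of these 7 rose and 1 fell (3.51% called, against 1.51% of all genes), the fall being srv-7, and the median was 0.10. The filter took the mean over all 6 arrays, most of them mutant, so a dim gene high only in the wild type could be left out. In a list this dim, the share called and the split of 7 to 1 may therefore reflect the filter in part. The 7 were srw-17, sri-31, srr-2, sri-40, srbc-20, srbc-82 and srh-2, with log2 differences of 1.06 to 1.91. At sri-31 the values were 198 and 187 in elo-5 C17ISO, 542 and 566 in elo-5 C13ISO, and 62.2 and 58.2 in N2 C13ISO. At sri-40 they were 250 and 221 in elo-5 C17ISO, 11.9 and 6.7 in elo-5 C13ISO, and 98.7 and 70.2 in N2 C13ISO. The supplemented mutant was thus between the other groups at sri-31 and above both at sri-40. Without 1 array the list had 1 to 5 called genes, the 1 in the fit without elo-5 C17ISO replicate 1. Of 182 nuclear hormone receptor genes, a family of ligand-regulated transcription factors, nhr-158 and nhr-7 rose and nhr-68 and nhr-114 fell. Called were thus 2.2%, near the share of all genes, and the list median was 0.06. The gene nhr-114 read 210 and 254 in elo-5 C17ISO, 55.7 and 50.6 in elo-5 C13ISO, and 430 and 527 in N2 C13ISO (log2 -0.99, SE 0.18, adjusted p = 0.0311), the supplemented mutant lying between the other groups.

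Stress response genes gave calls in some lists and none in others, where 1.51% of all genes were called. DAF-16 is the transcription factor that insulin signalling restrains and that unfed L1 larvae activate. Of 15 genes that DAF-16 activates, mtl-1 and hsp-12.6 fell and none rose (13.3% called), and of 8 that it represses dct-7 rose (12.5%). The repressed list had 12 genes on the array, and dct-5 was among those too dim to be tested. It lay the other way, at 19.2 and 11.2 in elo-5 C17ISO and 108 and 103 in N2 C13ISO. The small heat shock protein gene hsp-12.6 read 29.2 and 15.2 in elo-5 C17ISO, 135.7 and 122.4 in elo-5 C13ISO, and 66.6 and 74.8 in N2 C13ISO (log2 -1.21, SE 0.22, adjusted p = 0.0304). It was lowest in the supplemented mutant, where both values lay near the offset. The lists had medians of -0.08 and 0.04. Of 41 short-chain and aldehyde dehydrogenase genes alh-9 fell by 0.74 (SE 0.13, adjusted p = 0.0231), with 1167 and 1029 in elo-5 C17ISO, 748 and 731 in elo-5 C13ISO, and 1899 and 1795 in N2 C13ISO, and none rose. The supplemented mutant lay between the other groups at alh-9. Limma called none of 42 glutathione S-transferases, 55 UDP-glucuronosyltransferases, 21 genes of the endoplasmic reticulum unfolded protein response or 14 of the mitochondrial one, with 9, 13, 5 and 3 at an unadjusted p under 0.05. The adjusted p of hsp-12.6 was 0.069 to 0.25 without 1 array and that of alh-9 0.092 to 0.22.

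Markers of oocytes and germ cells were not called apart from glh-4. The 25 oocyte and early embryo markers, 4 of them with an unadjusted p under 0.05 in limma, had a median of -0.26, the lowest of the lists with at least 5 tested members, and a summed intensity of 4251 and 3149 in elo-5 C17ISO, 12834 and 20473 in elo-5 C13ISO, and 4865 and 4039 in N2 C13ISO. Supplemented and wild-type sums overlapped, and the unsupplemented mutant was far higher. The 27 germ granule and meiosis markers had a median of -0.20, and glh-4 read 91.6 and 77.5 in elo-5 C17ISO, 150 and 139 in elo-5 C13ISO, and 27.1 and 22.8 in N2 C13ISO (log2 1.30, SE 0.18, adjusted p = 0.00961). It ran against the median of its list. The marker lists of muscle, intestine, epidermis and the excretory cell, glia and coelomocytes had no limma call (3, 2, 3 and 2 members at an unadjusted p under 0.05) and medians of -0.07, -0.07, -0.02 and -0.03. Their summed intensities overlapped between elo-5 C17ISO and N2 C13ISO except for the intestine, at 30175 and 28785 in elo-5 C17ISO and 31710 and 30741 in N2 C13ISO. With array medians aligned the epidermis and excretory list medians turned to 0.05 and 0.04, that of muscle to 0.00 and that of the intestine to -0.001. The body wall muscle myosin gene unc-54, likewise picked with its values known, read 6702 and 6200 in elo-5 C17ISO and 7071 and 6302 in N2 C13ISO, overlapping.

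Genes of the basic machinery were uncalled and slightly below zero. The 74 cytosolic ribosomal protein genes had a median log2 difference of -0.13, with members between -0.23 and 0.07. The medians were -0.16 for 57 mitochondrial ribosomal protein genes, -0.12 for 39 genes of oxidative phosphorylation and -0.09 for 33 proteasome genes. Limma called none of them, and 30, 6, 7 and 2 members of these lists had an unadjusted p under 0.05. Aligning the array medians moved every value up by 0.07 and quantile normalization brought the ribosomal protein median to -0.01. Histone genes lay the other way, with 23 of 26 above zero, a median of 0.19, no call and 9 at an unadjusted p under 0.05.

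**Figure D4:**
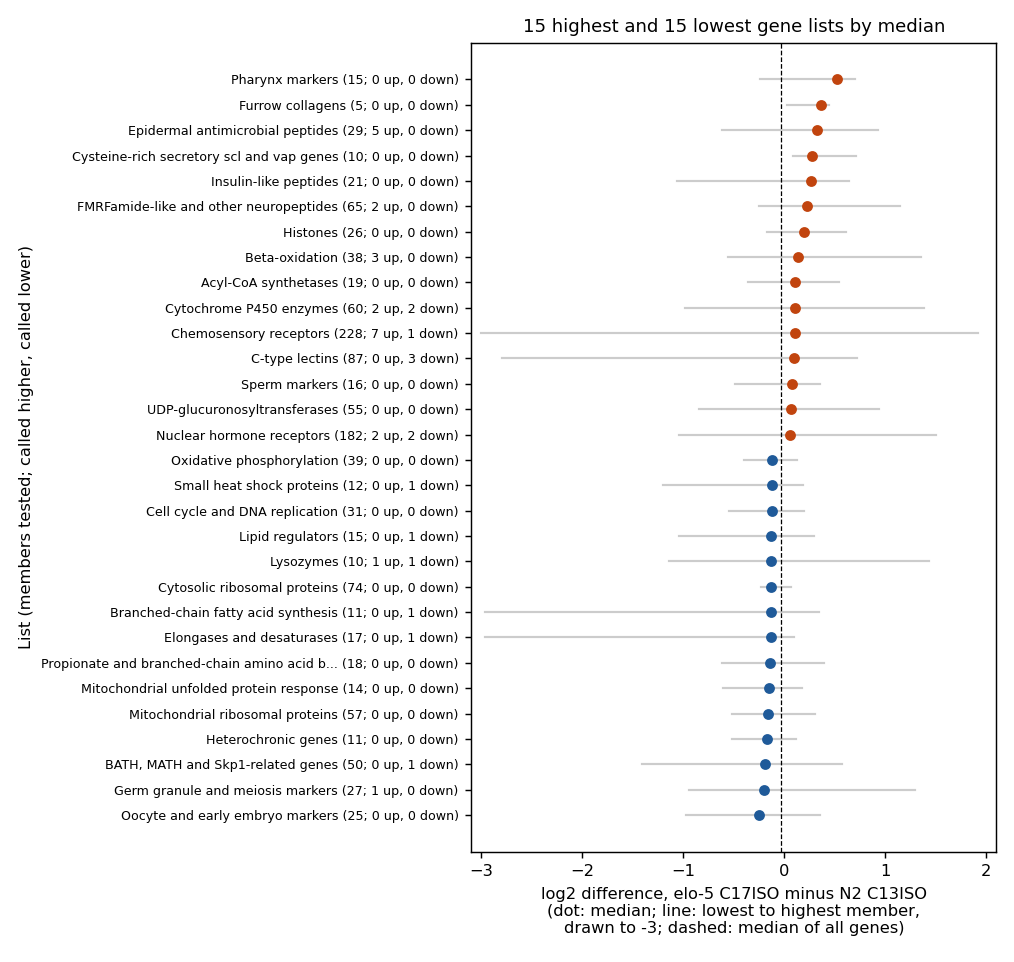
Median log2 difference (dot) and range of members (line) for the 15 highest and 15 lowest lists by median among those with at least 5 tested members, with the number tested and called in brackets and the median of all genes dashed. Pharynx markers lie highest at 0.52 and oocyte and early embryo markers lowest at -0.26.

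Some called genes had other probe sets that were not called. Of the 189 called genes, 41 had more than 1 tested probe set, 35 of them with all probe sets on the same side of zero and 8 with all called. In 6 genes (elpc-1, hrpr-1, dnj-13, nra-1, kin-1 and vha-13) a further probe set had the opposite sign or read 0.00. At elpc-1 the called probe set differed by -1.39 and the other by 0.14. At kin-1, which encodes the catalytic subunit of protein kinase A, the called probe set differed by -0.95 and the other 3 by -0.09, -0.06 and 0.00. Probe sets of 1 gene can read different transcripts, and the labels do not say which they read here. Called genes were next to each other on occasion: 35 of 187 placed called genes (18.7%) had another called gene within 5 places in the gene order, as did 1639 of 11643 other tested genes (14.1%). The longest runs after nlp-27 to nlp-31 had 3 genes each. One held srv-7 between T22B7.4, which fell by 0.99, and the SOX transcription factor gene egl-13, which rose by 0.76. The other held pugs-9 and W08E12.7, which fell, and idpp-12, which rose. These neighbours were named for their position.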

How the data were processed

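The authors computed 1 linear intensity per probe set and array with dChip, per the labels, and deposited these intensities for 22548 probe sets. Its version, mismatch setting and array normalization: not given in the sources used here. Values carry no detection call, and the number of arrays limits the precision. Names came from the platform annotation, checked by Entrez ID against the WBcel235 RefSeq gene table (20766 probe sets with 1 gene, 20701 of them matched), which also gave the gene order. Groups came from the sample titles.

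Intensities were analysed as log2(value + 16). Probe sets with a mean above the 30th percentile (15783) entered 1 limma fit over all 6 arrays, with a mean per group, an intensity trend, 3 residual and 6.94 prior degrees of freedom, two-sided p-values and Benjamini-Hochberg adjustment at 0.05. SDs are of intensities and SEs of log2 differences, with 95% intervals. Lists use the brightest probe set of each gene. A suffix of probes that may match several transcripts is not marked at every gene named. Those of elo-5, elo-6, C17F4.7, glh-4, spp-8, lys-2 and cyp-14A5 carry one, among others. The limma script was tested on simulated data. The tools were limma 3.58.1 in R 4.3.3, and matplotlib 3.10.9 and pandas 2.3.3 in Python 3.11.15.

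The members, the 65 gene lists and the tests were chosen with earlier results of these data known. Named by rule were the 20 largest increases and decreases among called probe sets with 1 gene and no overlap, up to 6 called members of each list, all branched-chain synthesis genes, and elo-5 with 5 neighbours per side; other names are marked in the text as chosen after their values were seen. Alternatives changed the offset, filter, normalization, variance prior, threshold and arrays fitted. One gene that the rule names is not reported here.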

Additional observations from a re-analysis of the deposited data

How the results depend on the processing

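The number of called probe sets was 222 (121 higher, 101 lower) as reported, and stayed within 1.5 times that with offsets of 1 or 64, a 50th percentile filter, quantile normalization or a robust prior. With array medians aligned it was 332 (231 higher, 101 lower). Requiring at least 2-fold left 99 (55 higher, 44 lower). Without the filter 103 were called (62 and 41), without an intensity trend 84 (47 and 37), and in a fit of only the 4 arrays compared 534 (254 and 280). Leaving out 1 array gave 26 to 48 in all, 12 to 35 higher and 11 to 14 lower. Same-numbered arrays share only a number, the deviations from the group means correlating at 0.08, 0.00 and 0.05 between the pairs of groups. A replicate block gave 39 (18 higher, 21 lower), among them 33 of the 222. No called gene among those named changed sign in any of these fits. The cause of the other shifts was not tested, apart from the fewer arrays of some fits. The sperm marker list had no member left under the 50th percentile filter. Genes dimmer than the offset, such as dbd-18 in N2, have sizes that depend on it.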

Other observations

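The gene K12H6.9 read 16.1 and 25031 in the elo-5 C17ISO arrays, 13 and 13.9 in elo-5 C13ISO, and 23.7 and 24.2 in N2 C13ISO. The second of the elo-5 C17ISO values is the highest on its array, and among tested probe sets this was the only one with a ratio of at least 10 between the arrays of a group and a value of at least 100. It was not called (limma adjusted p = 0.352).

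The gene dct-5 was too dim over the 6 arrays to be tested, and read 19.2 and 11.2 in elo-5 C17ISO, 10.9 and 6.79 in elo-5 C13ISO, and 108 and 103 in N2 C13ISO, so both mutant groups lay below the wild type. An unnamed called probe set read 425 and 730 in elo-5 C17ISO, 249 and 219 in elo-5 C13ISO, and 1.68 and 9.3 in N2 C13ISO, with a log2 difference of 4.76 (adjusted p = 2.61e-05), the largest increase after dbd-18.

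The 10 tested cysteine-rich secretory scl and vap genes all lay above zero, with a median of 0.28 and a summed intensity of 10318 and 9909 in elo-5 C17ISO, 5189 and 4120 in elo-5 C13ISO, and 8150 and 9167 in N2 C13ISO. Limma called none of them, and 3 had an unadjusted p under 0.05.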
